A study of Homo sapiens with 16 samples.

Results

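The genes described here encode the cytosolic ribosomal proteins, 79 of the 27719 gene names on the array. They were chosen by name only: a name that begins with RPL or RPS followed by a number and at most one of the letters A, X, Y or L, or RPLP0, RPLP1, RPLP2 or RPSA, with the S6 kinases left out. RPSA is not a name on the array. Of the 79 genes, 48 belong to the large and 31 to the small subunit. They are measured by 193 of the 40982 probes tested, and each gene was taken by its brightest probe over all arrays.

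Gene expression was measured in undifferentiated Caco-2 cells, an established human colon carcinoma line used as a model of the intestinal epithelium. The cells were kept for 6 h in medium with reduced serum alone (MED-CTL), or in the same medium with pepsin- and trypsin-digested gliadin (PT-G), with the blank made from both enzymes without a substrate (PT), or with 150 µg/ml of p31-43, a synthetic gliadin peptide. The amounts of PT and PT-G are not given in the sources used here. Each condition was represented by 4 arrays from 4 independent experiments with cells of neighbouring passages, 16 arrays in all. The study asked whether gliadin peptides act directly on transcription in epithelial cells, and PT served as the control for PT-G.

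Ribosomal proteins form, together with the ribosomal RNAs, the large and the small subunit of the ribosome, which translates messenger RNA. Most of their mRNAs start with a cytosine followed by a run of pyrimidines, the 5′ terminal oligopyrimidine (TOP) motif, through which the mTOR pathway controls their translation rather than their amount. Their transcription follows growth and MYC activity. Several of them, RPL5 and RPL11 first among these, bind and inhibit MDM2 when ribosome assembly is disturbed, which stabilises p53. In the intestinal epithelium ribosome production is highest in dividing cells.

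The following stretches of 30 bases around the annotated transcription start show the motif in genes to which the results below refer, and in the paralogs RPS27L and RPL10L, which lack it, as the entry of RPL3 nearly does. They are RefSeq sequences of GRCh38.p14 in the direction of transcription, with 10 bases before the start and 20 bases from it on. Capitals mark the longest run of pyrimidines led by a cytosine within 10 bases of the start, and the entry with the longest run was taken where a gene has several.
RPL34, chr4:108620566-108620595, plus strand: CTTTTTTCTTCCTCTTCCggggacgttgtc
RPS10, chr6:34426050-34426079, minus strand: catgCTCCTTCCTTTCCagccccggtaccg
RPL22, chr1:6199576-6199605, minus strand: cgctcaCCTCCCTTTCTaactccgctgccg
RPL29, chr3:51995876-51995905, minus strand: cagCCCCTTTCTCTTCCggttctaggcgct
RPL11, chr1:23691796-23691825, plus strand: gctccgCTTTCTCTTCCTgctctccatcat
RPL3, chr22:39319604-39319633, minus strand: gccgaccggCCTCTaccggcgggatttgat
RPLP0, chr12:120201092-120201121, minus strand: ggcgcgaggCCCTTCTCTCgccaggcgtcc
RPS6, chr9:19380217-19380246, minus strand: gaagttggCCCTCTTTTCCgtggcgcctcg
RPS27L, chr15:63157458-63157487, minus strand: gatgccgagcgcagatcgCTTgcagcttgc
RPL10L, chr14:46651762-46651791, minus strand: gtagttaagagagcgcattttgacttcgag

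A cytosine followed by at least 7 pyrimidines within 10 bases of the start was found in 51 of the 77 promoter entries of the members, or 66.2%, against 9.17% of all 35116 entries. At least one entry was found for 62 members, and 48 of these had such a run in an entry. Both strands of the whole entries, which span 250 bases before and 50 after the start, were also searched for short motifs. CCGGAAG, a core recognised by ETS factors, was in 35.1% of the members' entries and in 10.3% of all entries. CTCGCGAGA was in 9.09% of the members' entries and in 0.686% of all, and TATAA in 18.2% and 20.4%.

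The 16 arrays were spread over 5 slides. They formed 4 runs of one array per condition, as ordered by the dates in the names of the deposited scans. MED-CTL 1 belonged to run 2 and MED-CTL 2 to run 1, and the replicate number of all other arrays is that of the run. Runs 1 and 2 are called early and runs 3 and 4 late. Between 27660 and 33947 spots of an array were well above background, and the median raw intensity lay between 153 and 410. Of 11 epithelial markers, 10 were well above background on all arrays, among them the keratins KRT8 and KRT18 and the enterocyte gene VIL1, whereas CDX1 was so on 1 array. Of 10 markers of leukocytes, endothelium and fibroblasts, PTPRC and CDH5 were well above background on no array, DCN on 8 and 6 on all. Since whole cultures were measured, fewer cells of one kind and less RNA per cell cannot be told apart. All 79 members were well above background on all arrays, and none was saturated.

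Values of the members are log2 intensities after quantile normalization. Between 60 and 68 of the 79 members lay in the brightest 1% of the probes of an array, where quantile normalization gives every array the same set of values. RPS2, a protein of the small subunit, shows this most clearly. Its brightest probe was the brightest of all probes on 8 arrays and received the same value of 18.54 there. On the other arrays it ranked between 2 and 11, with values from 18.07 to 18.37, so that differences of RPS2 among the 8 arrays are not measurable on this scale. The members held between 5.06% and 6.83% of the summed intensity of an array, and both of these extremes were PT arrays.

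No ribosomal protein gene passed the nominal p of 0.01 used by the study in any of the 6 comparisons among the 4 conditions (limma, 4 arrays each). For PT-G against MED-CTL, 3.44% of all probes passed. For PT this was 3.64%, for p31-43 0.388% and for PT-G against PT 0.0903%. Between PT-G and p31-43 3.73% of the probes passed and between PT and p31-43 3.15%. At an unadjusted p under 0.05 in limma, 3 members were higher with PT-G and 7.98% of all probes passed. The count was 6 members with PT (8.98% of probes) and 5 with p31-43 (2.15% of probes), and all of these were higher than in MED-CTL. No member passed this limit between PT-G and PT (0.781% of probes), between PT-G and p31-43 (8.57%) or between PT and p31-43 (7.15%). No member had an adjusted p under 0.05 in these comparisons, and the lowest was 0.313 with PT-G, 0.301 with PT and 1 with p31-43 (limma, adjusted p). When the replicate number was used as a block, 2, 2 and 1 members passed the nominal 0.01 for PT-G, PT and p31-43, against 7.59%, 8.49% and 1.05% of all probes. The replicate number joins MED-CTL 1 and 2 with arrays of another run. With the run as a block the counts were 2, 4 and 2, against 9.16%, 10.3% and 1.38%.

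The median log2 fold change of the members against MED-CTL was 0.08 for PT-G, 0.12 for PT and 0.08 for p31-43, where the medians of all probes were −0.01, −0.01 and 0.00. Values above 0 were seen for 59, 61 and 60 of the 79 members. These comparisons share the MED-CTL arrays, so that their counts are not independent of each other. For p31-43 the direction depended on the scaling. The median was −0.11 with 19 members above 0 when the background-subtracted signal was scaled to its 75th percentile, where the median of all probes was −0.08. After median scaling it was 0.004 with 42 above 0, against −0.08 over all probes. For PT-G and PT it stayed above 0, at 0.04 and 0.02 with the first of these scalings (49 and 42 members above 0) and at 0.12 and 0.06 with the second (69 and 50). Cyclic loess fitted without the members gave 0.04 for PT-G, 0.05 for PT and 0.02 for p31-43, with 48, 50 and 43 members above 0. Single arrays also moved the median for PT-G, which was 0.02 with 52 members above 0 without PT-G 4, 0.04 without MED-CTL 3 and 0.12 without PT-G 3. Between PT-G and PT the median was −0.03 with 33 members above 0. The 95% interval of a member reached 0.27 to either side on the log2 scale in the median, and in every comparison with MED-CTL the interval stayed between −1 and 1 for at least 75 members.

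**Figure D1:**
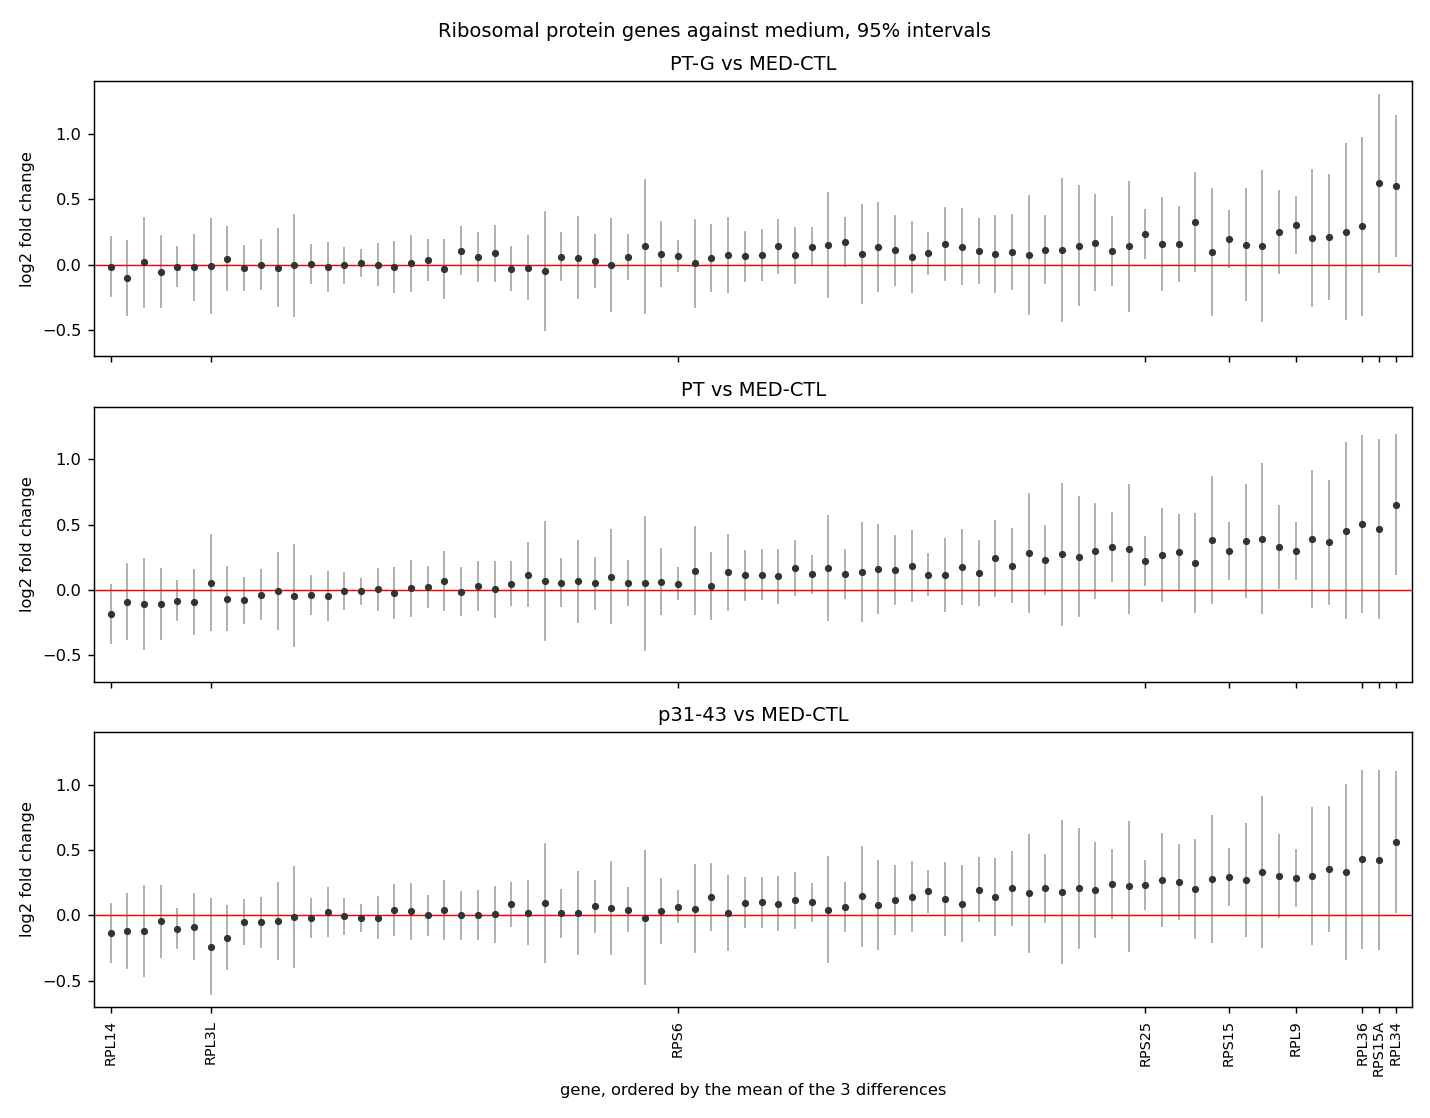
Log2 fold change of 78 of the 79 genes against MED-CTL (points) with its 95% interval (bars), for PT-G, PT and p31-43 in 3 panels, genes ordered from left to right by the mean of the 3 values and 9 of them labelled. The points stay between −0.24 and 0.65, RPL34 and RPS15A lie at the right end in each panel, and their intervals are among the widest.

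Apart from RPL34 and RPS15A, which are described below, the highest log2 fold changes against MED-CTL were those of RPL37 with PT-G (0.32) and of RPL36 with PT (0.50) and p31-43 (0.43), all of the large subunit. The lowest were those of RPL10L (−0.10), RPL6 (−0.06) and RPL22 (−0.05) with PT-G and of RPL14 (−0.18) and RPS9 (−0.11) with PT, among the members reported by name. With p31-43 they were those of RPL3L (−0.24), RPS12 (−0.17) and RPL14 (−0.14). Between PT-G and PT the values ran from −0.29 for RPS16, −0.25 for RPL15 and −0.22 for RPS28 to 0.13 for RPS9, 0.15 for RPS15A and 0.17 for RPL14. None of these passed the nominal 0.01 in limma.

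The members nearest to the threshold were few and recurred. RPL34, RPL9 and RPS25 had an unadjusted p under 0.05 against MED-CTL with each of the 3 treatments, RPS15 with PT and p31-43, RPS21 and RPS28 with PT, and RPL3 with p31-43 (limma). Apart from RPL34 and RPL3, these names fall outside the rule for naming genes and were chosen after their values were seen. RPL9, a protein of the large subunit, measured 16.48, 16.48, 17.01 and 16.80 on MED-CTL arrays 1 to 4 and between 16.85 and 17.10 on all treated arrays. Its log2 fold change was 0.30 with PT-G (SE 0.10, limma, adjusted p = 0.313), 0.30 with PT (adjusted p = 0.312) and 0.28 with p31-43 (adjusted p = 1). The lowest values were those of MED-CTL 1 and 2. MED-CTL 4 also lay below all treated arrays, and MED-CTL 3 lay within their range. RPS25, of the small subunit, measured 17.19, 17.24, 17.51 and 17.56 in MED-CTL and between 17.48 and 17.79 on the treated arrays, with the same pair of arrays lowest.

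RPS15, also of the small subunit, behaved differently. It measured 16.85, 16.51, 16.49 and 16.53 in MED-CTL, against 16.85, 16.86, 16.77 and 17.07 with p31-43 and 16.76, 16.83, 17.08 and 16.90 with PT. Here MED-CTL 1 was the high array and the other MED-CTL arrays lay below all arrays of both treatments. The log2 fold change was 0.30 with PT (SE 0.10, limma, adjusted p = 0.301) and 0.30 with p31-43 (SE 0.10, adjusted p = 1). With both early MED-CTL arrays left out it was 0.38 with each (limma, adjusted p = 0.271 and 0.904). RPS15 was then the one member past the nominal 0.01 in either comparison, against 2.96% of all probes for PT and 0.676% for p31-43. This setting was chosen after the values were seen.

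Groups that did not overlap with MED-CTL were rare among the members. RPS23 was higher on all PT-G arrays (16.97, 16.97, 16.97 and 17.05) than on all MED-CTL arrays (16.72, 16.71, 16.95 and 16.89), which 3.87% of all probes showed in one or the other direction. RPL23A was higher on all PT arrays, and the background was 5.08%. With p31-43 the paralogs RPL3 and RPL3L were apart from MED-CTL in opposite directions, and 1.39% of probes did not overlap. RPL3, which is placed near the peptidyl transferase centre, measured 17.30, 17.10, 17.24 and 17.29 in MED-CTL and 17.33, 17.37, 17.49 and 17.48 with p31-43, which is higher by 0.18 on the log2 scale (SE 0.08, adjusted p = 1 in limma). RPL3L, its counterpart of heart and skeletal muscle, had a log2 fold change of −0.24 (SE 0.17, adjusted p = 1), with 6.77, 6.81, 6.82 and 6.86 in MED-CTL and 6.66, 6.70, 6.49 and 6.45 with p31-43. No member was without overlap between PT-G and PT, and the background was 0.632%.

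The genes with known special roles passed no threshold with any treatment. RPLP0, RPLP1 and RPLP2 form the stalk that recruits elongation factors, and their log2 fold changes with PT-G were 0.10, −0.02 and 0.00 (SE 0.12, 0.07 and 0.08). RPS6, the substrate of the S6 kinases downstream of mTOR, measured between 17.43 and 17.63 on all 16 arrays, with a log2 fold change of 0.07 for PT-G, 0.05 for PT and 0.07 for p31-43 (95% interval −0.06 to 0.19 for PT-G, limma). It was the second least variable member after RPL10A, with a total SD of 0.06 against 0.04 and a median of 0.18 over the members. RPL5 and RPL11, the MDM2-binding proteins of the 5S particle, had log2 fold changes of 0.03 and −0.02 with PT-G and of 0.05 and −0.08 with PT. None of the 9 members on a fixed list of MDM2-binding proteins, which may not be complete, passed. Their medians were 0.08 with PT-G, 0.05 with PT and 0.02 with p31-43. RPL13A, whose product also takes part in the translational silencing of inflammatory mRNAs, had 0.14 with PT-G, 0.31 with PT and 0.22 with p31-43 at SE 0.23, and its values ran from 16.50 on MED-CTL 3 to 17.68 on PT-G 4. RPL10, RPS3, RPS4X, RPS27 and RPS27A, the last a fusion with ubiquitin, also stayed below the threshold, with log2 fold changes between −0.04 and 0.15 for PT-G. The highest value among the genes named in this paragraph was that of RPS3 with PT (0.38, SE 0.20, limma, adjusted p = 0.665), followed by RPL13A with PT (0.31). With p31-43 RPS3 had 0.27, RPL13A 0.22 and RPLP0 0.20.

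Paralogs of restricted or regulated expression gave no call either. RPL10L, known from testis, measured between 14.64 and 15.21, RPL39L between 9.14 and 9.94 and RPS27L, a target of p53, between 12.92 and 13.95, and in each case the 4 conditions overlapped. RPL10L and RPL10 have near-identical sequences, so that the probe named RPL10L may also bind RPL10. RPS27L had a log2 fold change of 0.11 with PT-G, 0.27 with PT and 0.18 with p31-43 (SE 0.26, limma). Only single probes were available for these 4 paralogs, RPL3L included.

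RPS15A and RPL34 had the highest log2 fold changes with PT-G and were low on the same pair of control arrays. RPS15A, a protein of the small subunit, measured 14.53, 14.71, 16.24 and 16.12 on MED-CTL 1 to 4. With p31-43 it measured 15.90, 15.80, 15.93 and 15.66, with PT 16.05, 15.82, 15.47 and 16.13, and with PT-G 16.00, 15.87, 16.06 and 16.14. The early MED-CTL arrays lay below all others by at least 0.77, while MED-CTL 3 was the highest of all arrays and MED-CTL 4 near the top of the treated range. RPL34, of the large subunit, showed the same picture with 15.43, 15.38, 16.40 and 16.70 in MED-CTL and between 16.30 and 16.91 on the treated arrays. The log2 fold change with PT-G was 0.62 for RPS15A (SE 0.32) and 0.60 for RPL34 (SE 0.25), and neither passed the nominal 0.01 (limma, adjusted p = 0.719 and 0.517). The value of RPS15A was 0.33 without MED-CTL 1, 0.39 without MED-CTL 2 and 0.90 without MED-CTL 3, where it passed the nominal 0.01. Without both early MED-CTL arrays its sign turned, with −0.16 for PT-G, −0.31 for PT and −0.35 for p31-43. With array weights RPS15A had 1.03 and RPL34 0.93 with PT-G (limma, adjusted p = 0.0249 and 0.0126).

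The mean effect of PT and PT-G against MED-CTL was tested for a difference between late and early runs. RPS15A had a late minus early difference of −1.54 (SE 0.23, limma, adjusted p = 0.0545), RPL34 of −1.02 (SE 0.25, adjusted p = 0.546) and RPS10 of −0.48 (SE 0.15, adjusted p = 1). These 3 members and 0.83% of all probes passed the nominal 0.01. RPS10 measured 16.92, 17.09, 17.44 and 17.66 in MED-CTL and between 17.25 and 17.56 on the treated arrays. No member passed after adjustment, but RPS15A lay near the limit. Its adjusted p in limma was 0.0455 with normexp, 0.0479 with the mean foreground, 0.0492 with median scaling, 0.0405 with cyclic loess and 0.0457 with the filter on dim probes. It was 0.013 without PT 3 and 0.00499 without PT 4, and ran up to 1 with the mean of all probes of the gene.

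The other probes of the same genes did not show it. RPS15A has 3 probes, and the other two measured 15.52 and 15.43 in the mean of the early MED-CTL arrays, inside their ranges of 15.14 to 15.93 and 14.92 to 15.78 on the other 14 arrays. Their late minus early differences were 0.11 and 0.16 (limma, adjusted p = 1 for each). The 5 other probes of RPL34 had differences between 0.12 and 0.49, and the 5 others of RPS10 between 0.20 and 0.48, all of the opposite sign to the brightest probe. When all probes of a gene were averaged, the difference became −0.42 for RPS15A, 0.14 for RPL34 and 0.19 for RPS10, and no member passed 0.01. The low values of the early MED-CTL arrays thus belong to single probes of these genes.

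**Figure D2:**
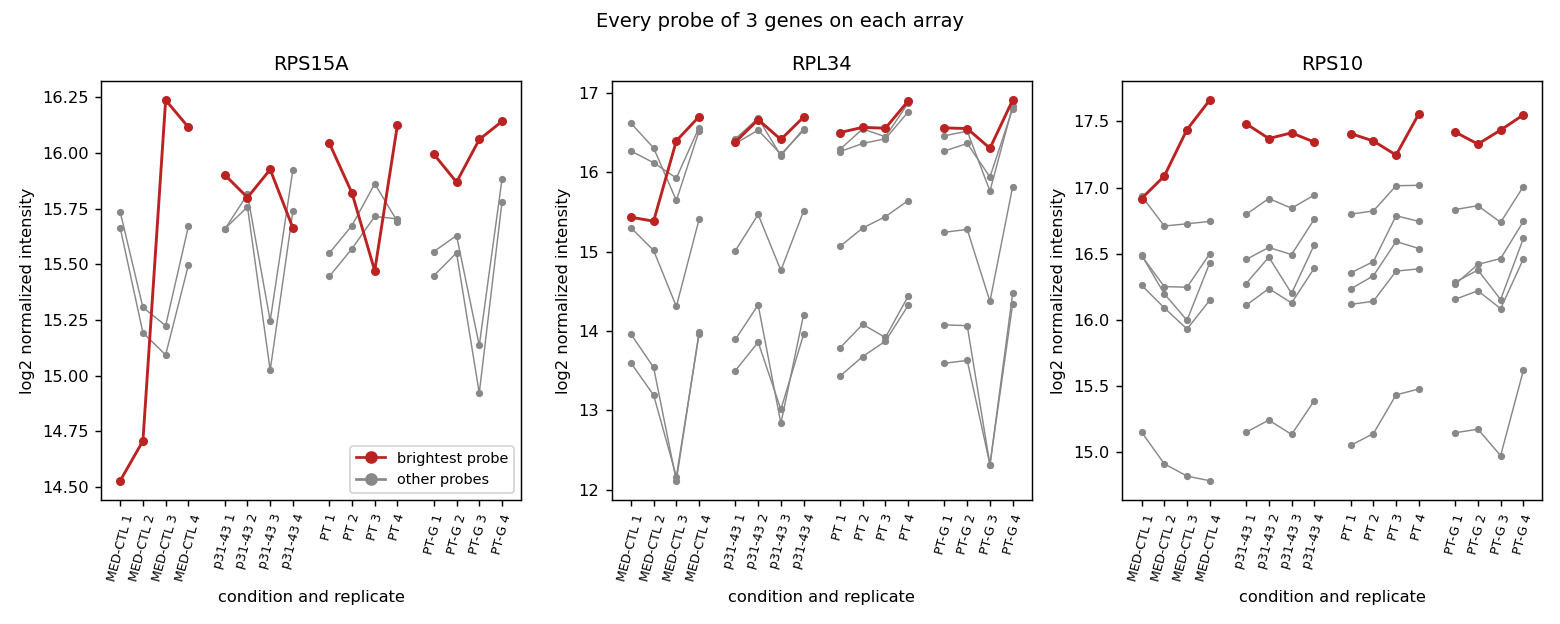
Log2 normalized intensity of every probe of RPS15A, RPL34 and RPS10 on each of the 16 arrays, in 3 panels, with the brightest probe in red, the other probes in grey and lines joining the arrays of one condition. In RPS15A and RPL34 the red line is low on MED-CTL 1 and 2 only, where the grey lines are not.

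Both early MED-CTL arrays lay below the other 14 for 6 of the 79 brightest probes, for 11 of 113 other probes of the members and for 2.39% of all 40705 probes measured on every array. Besides RPS15A, RPL34 and RPS10 the brightest probes were those of RPL9, RPS25 and RPS7. Both lay above the other 14 for no probe of a member and for 1.1% of all. Among the other probes, the gap was widest for RPL22, with a mean of 7.61 on the early MED-CTL arrays and values from 10.27 to 12.92 elsewhere, followed by a probe of RPS26 with 12.34 and 13.74 to 15.27. The brightest probes of RPL22 and RPS26 did not share this. In all, 2, 3 and 1 of the 114 other probes passed the nominal 0.01 with PT-G, PT and p31-43, all upward, and none passed the adjustment. Of all probes 3.44%, 3.64% and 0.388% passed, so that 2 and 3 of 114 lie below the background. They belonged to RPL5 (0.44, 0.49 and 0.48), RPL28 (0.74 with PT-G and 0.71 with PT) and RPS14 (1.66 with PT). The brightest probes of RPL5, RPL28 and RPS14 had log2 fold changes between −0.02 and 0.12 in these comparisons. These probes were chosen after their values were seen.

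Differences among the arrays of a condition were larger than those among conditions. The run accounted for a median of 50.6% and the condition for 12.9% of the variance of a member, and 69 of 79 members varied more by run than by condition. Over all probes the medians were 44.8% and 14.8%, and 31144 of 40705 probes varied more by run than by condition. The median intensity of the members was lowest on PT-G 3 (16.88) and highest on PT-G 4 (17.29), so that both extremes were arrays of one condition. The group means of this median lay between 17.08 and 17.16. Of the 79 members, 20 had their lowest value on MED-CTL 3, 12 each on MED-CTL 4 and PT-G 3, and 22 had their highest on PT-G 4.

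**Figure D3:**
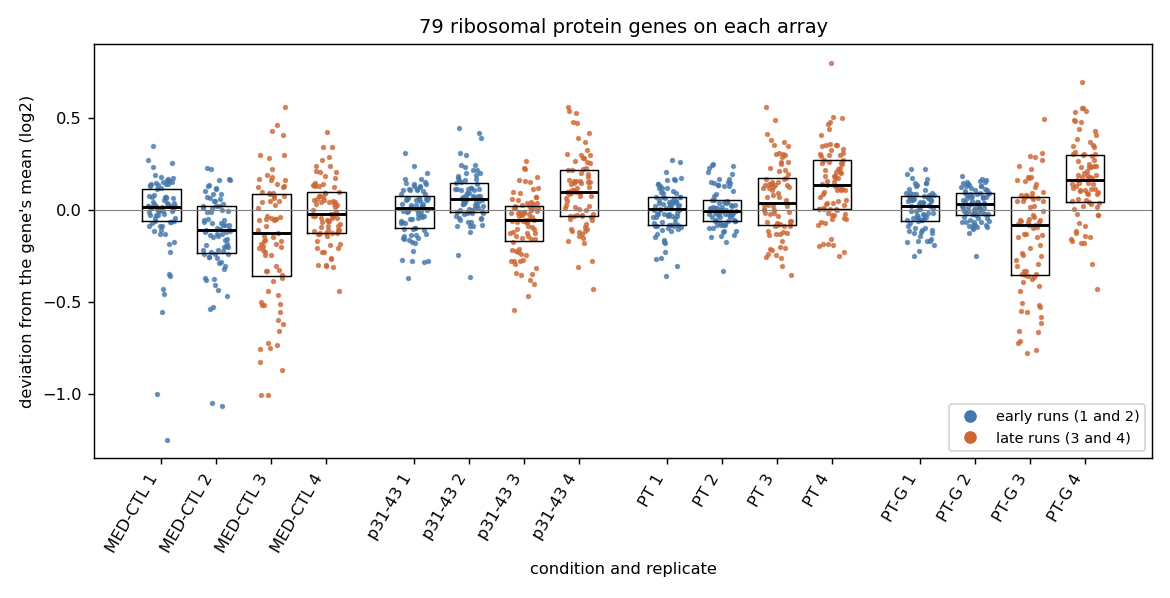
Deviation of each of the 79 genes from its own mean over the 16 arrays (points), with the median and quartiles (boxes), by condition and replicate, early runs in blue and late runs in orange. MED-CTL 3 and PT-G 3 have the widest boxes with interquartile ranges of 0.45 and 0.42, PT-G 4 has the highest median at 0.16, and the lowest point of MED-CTL 1 and of MED-CTL 2 is RPS15A.

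The genes that spread most did so together. RPL36, a protein of the large subunit, measured 15.17, 14.67, 14.19 and 15.54 in MED-CTL, 15.23, 15.50, 14.84 and 15.72 with p31-43, 15.03, 15.36, 15.55 and 15.64 with PT and 15.17, 15.25, 14.42 and 15.89 with PT-G. It was lowest on MED-CTL 3 and PT-G 3, and the conditions overlapped. RPL39, which lines the exit tunnel, ranged from 15.47 on MED-CTL 3 to 16.78 on PT-G 4. RPL15 ranged from 15.66 on MED-CTL 3 to 16.98 on p31-43 4, and RPS16 from 16.34 on PT-G 3 to 17.47 on p31-43 4. Others went the opposite way on the same arrays. RPS9 measured 15.82 on MED-CTL 3 and 15.76 on PT-G 3 against 14.99 to 15.32 elsewhere, and RPL6 measured 17.22 and 17.09 on these arrays against 16.60 to 16.95 elsewhere.

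This arrangement largely followed the slides, which are nearly the same division of the arrays as the runs. The deviations of the 79 members from their means had a correlation of 0.88 between MED-CTL 3 and PT-G 3, which lay on slide 3, and of 0.58 and 0.73 between these and p31-43 3 on the same slide. PT 3, of the same run but on slide 5, had −0.52 with MED-CTL 3 and −0.47 with PT-G 3. It had 0.89 with p31-43 4, of another run and condition but the same slide, the highest value of all pairs of arrays. Over the 19 pairs on one slide the median correlation was 0.68 (range 0.19 to 0.89). It was 0.09 (range −0.52 to 0.66) over the 6 pairs of one run on different slides, and −0.27 over the 24 pairs of one condition on other slides and runs. The pairs of run 4 on different slides were positive. There p31-43 4 on slide 5 had 0.38 with MED-CTL 4, 0.44 with PT 4 and 0.66 with PT-G 4. Slides 1 to 4 each held arrays of 1 run only, so that slide and run are separated only by the arrays of slide 5. The correlations are across genes of arrays that share hybridisation conditions, the values are centred on the same means, and the genes are not independent. Over all 40705 probes the corresponding medians were 0.48, 0.10 and −0.15.

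**Figure D4:**
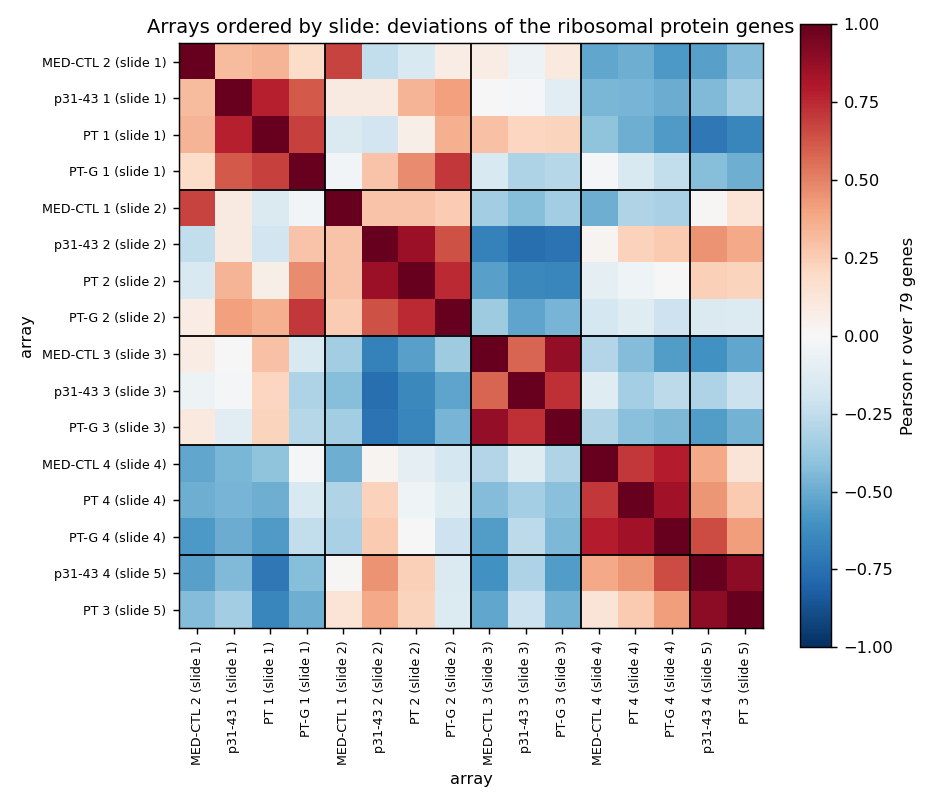
Pearson correlation over the 79 genes of their deviations from the gene means, between each pair of the 16 arrays, ordered by slide, with black lines between slides and a colour scale from −1 (blue) to 1 (red). The blocks along the diagonal are red in all 5 slides, and across slides 1 and 2 the pairs PT-G 1 with PT-G 2 (0.71) and MED-CTL 1 with MED-CTL 2 (0.68) are red as well.

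In a limma model with a term for the slide, 4 members passed the nominal 0.01 for PT-G and 12 for p31-43, all higher than in MED-CTL, and none for PT. Slide 5 holds no MED-CTL array. Of all probes, 12.2%, 3.73% and 10.6% passed in this fit. The members were RPL36, RPS21, RPS25 and RPS27 for PT-G, and RPL36 and RPS21 had adjusted p values of 0.0466 and 0.0392. For p31-43 the 12 members included RPL36 (0.49, adjusted p = 0.132), RPS29, RPS26, RPL3, RPL34, RPS3 and RPS16, and none passed the adjustment. Within slides, the median difference of the members between p31-43 and MED-CTL was 0.09, 0.05 and 0.04 on slides 1, 2 and 3, with 57, 51 and 44 of 79 members higher. For PT-G it was 0.10, −0.009, −0.004 and 0.18 on slides 1 to 4, and for PT 0.10, −0.02 and 0.15 on slides 1, 2 and 4. The slide thus changed the count of calls, while the median difference was not of one sign within slides for PT-G and PT. Within runs the medians of PT-G and PT also had both signs, from −0.01 to 0.18 and from −0.02 to 0.16, and those of p31-43 ran from 0.04 to 0.16.

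Late and early runs, with 8 arrays each, differed in 13 of 79 members at a nominal p under 0.01, where 24.2% of all probes did. With an adjusted p under 0.05 the count was 14 members and 25.8% of probes (limma, conditions in the model). Each period held only 2 runs, and the model counted its 8 arrays as independent. The p values of this comparison therefore do not measure the spread between runs. RPL7, RPL11, RPL29, RPL3, RPL39L, RPL7A and RPLP0 were higher and RPL22, RPL23, RPL26, RPL41, RPS14 and RPS2 lower in the late runs. RPL7 ranged from 15.89 with a median of 16.19 to 16.35 in the early runs and from 16.41 with a median of 16.67 to 16.99 in the late runs, a difference of 0.54 (SE 0.09, adjusted p = 0.000721). RPL22, which binds RNA outside the ribosome as well, ranged from 14.69 to 14.91 in the early and from 14.01 to 14.57 in the late runs, a difference of −0.48 (SE 0.08, adjusted p = 0.000666). RPL23 (−0.34, SE 0.05, adjusted p = 0.000607) and RPL11 (0.17, SE 0.04, adjusted p = 0.00497), both known to bind MDM2, differed in opposite directions. These 4 members did not overlap between the periods, and 6.27% of all probes did not.

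**Figure D5:**
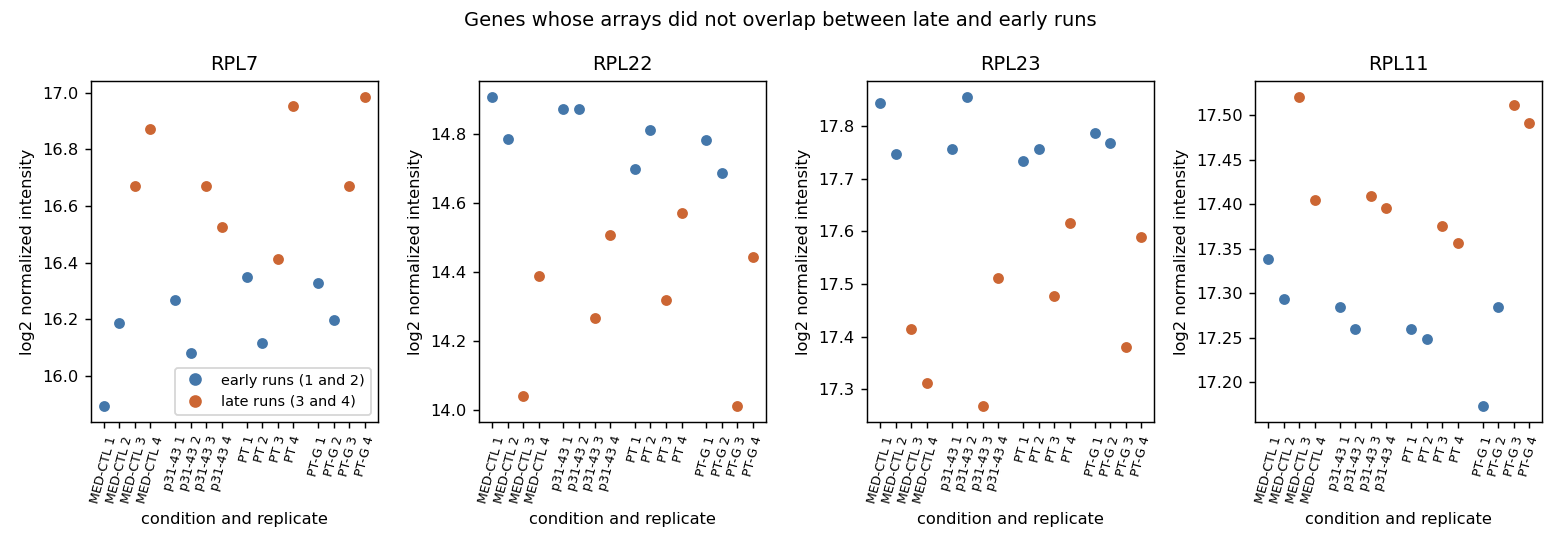
Log2 normalized intensity of RPL7, RPL22, RPL23 and RPL11 on each array, in 4 panels, by condition and replicate, with early runs in blue and late runs in orange. The genes were chosen because their arrays did not overlap between the periods, so that the colours are separated in each panel. The late runs are higher in RPL7 and RPL11 and lower in RPL22 and RPL23.

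As the arrays of these members did not overlap between the periods, the sign of their differences had to be the same in all 4 conditions. The sizes by condition ran from 0.42 to 0.73 for RPL7, from −0.63 to −0.31 for RPL22, from −0.43 to −0.20 for RPL23 and from 0.11 to 0.27 for RPL11. With all probes of a gene averaged, however, RPL22 had a late minus early difference of 0.34 and RPL23 of 0.05, opposite to their brightest probes, whereas RPL7 kept its direction and its call in all 27 alternatives. The other probes of RPL22 differed. The next brightest was also lower in the late runs, at 12.60 to 12.89 against 13.08 to 13.30, and another overlapped. The dimmest was far higher in most late arrays, at 10.54 to 12.92 against 7.53 to 10.63. RPL29 had a difference of 0.39 (SE 0.11, adjusted p = 0.0244) and overlapped. RPS2 had −0.24 (SE 0.07, adjusted p = 0.0247), but 8 of its values were at the top of the scale. Slides 1 and 2 held the early and slides 3 to 5 the late arrays, so that period and slide cannot be told apart.

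Genes that act on ribosomal proteins or share their regulation were read from fixed lists. None of the 17 other TOP mRNAs on the list, such as those of elongation factors, passed the nominal 0.01 with any treatment, and their median log2 fold change was −0.02 with PT-G and −0.03 with PT and with p31-43. Of all probes, 3.44% passed with PT-G, 3.64% with PT and 0.388% with p31-43, and the counts of assembly genes and translation factors below lie near these shares. Of 42 genes of ribosome assembly, 1 passed with PT-G, 2 with PT and none with p31-43. RIOK2, a kinase of the maturing small subunit, fell by 0.93 with PT (SE 0.18, limma, adjusted p = 0.0296) and had −0.81 with PT-G (adjusted p = 0.0561). The other was NVL with PT (−0.33, adjusted p = 0.266), named after its value was seen. Of 13 genes of RNA polymerase I, which transcribes the ribosomal RNA, TAF1A rose by 0.56 with PT-G (SE 0.09, limma, adjusted p = 0.011) and had 0.36 with PT (adjusted p = 0.114), and none passed with p31-43. Of 31 translation factors, none passed with PT-G and p31-43 and 1, EIF4A2, was lower with PT (−0.39, adjusted p = 0.177).

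Of 29 genes of the mTOR pathway with MYC, none had an adjusted p under 0.05. MYC itself, which drives the transcription of ribosomal protein genes, had a log2 fold change of 1.07 with PT-G (SE 0.27, limma, adjusted p = 0.0963). Its mean level was 15.32 there and 14.25 in MED-CTL, lay at 14.96 for PT and at 14.17 for p31-43, and it did not pass the nominal 0.01 with PT. SESN1, an inhibitor of mTOR signalling, had a log2 fold change of −0.73 with PT-G (adjusted p = 0.136) and −0.70 with PT (adjusted p = 0.154). These names were also chosen after their values were seen. Of 14 p53 targets, 2 rose with PT-G and with PT. Of all 40982 probes, 387 with PT-G and 336 with PT had an adjusted p under 0.05 in limma. BTG2, an antiproliferative gene, rose by 1.04 with PT-G (SE 0.14, limma, adjusted p = 0.00267) and by 0.93 with PT (adjusted p = 0.00612). CDKN1A, which encodes the cell cycle inhibitor p21, rose by 1.22 with PT-G (SE 0.27, adjusted p = 0.0464) and by 1.34 with PT (adjusted p = 0.0315). The other 12 did not pass, and no p53 target passed with p31-43. Of 9 ribosomal proteins and paralogs whose names fall outside the rule, such as FAU, none passed in any of these comparisons.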

How the data were processed

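RNA of 16 cultures (600 ng per array) was hybridised to Agilent one-colour whole genome arrays and read with Agilent Feature Extraction 9.5.3.1. The authors deposited linear foreground intensity values per spot, neither background-subtracted nor normalized between arrays in the foreground columns used, a processed intensity that is background-subtracted, and marks for controls, outliers and spots above background, which are other values per spot. The log2 table deposited by the authors differs from quantile-normalized median foreground intensity by at most 5e-09. It does not hold the values analysed here, which were normalized over the spots that are not controls. With the deposited table the median of the members for PT against MED-CTL was 0.075, and 0.117 here. Between late and early runs 17 members passed the nominal 0.01 with that table in limma, and 13 here. The authors name limma. The genome build of the probes is not given in the sources used here, and the study's filter and re-annotation of probes were not used.

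Log2 median foreground intensities of the 43376 spots that are not controls were quantile-normalized, and no background was subtracted. Outlier marks removed 1774 spots, and repeated spots of a probe were replaced by their mean. All 40982 probes measured on 3 or more arrays of every group entered limma 3.58.1, run in R 4.3.3 (one model of 4 groups, 12 residual degrees of freedom, 2-sided, Benjamini-Hochberg adjustment within a comparison, threshold nominal p under 0.01 as in the study). Late and early runs were compared with the conditions in the model, and the mean effect of PT and PT-G was tested for a difference between them. Neither of these models had a term for the run. For 78 members the brightest probe carries a RefSeq accession of the gene named. Depth on arrays is signal over background, and precision is limited by the number of arrays.

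Genes named were the 3 members of highest and lowest change in each comparison with MED-CTL, between PT-G and PT and between periods, members that passed, a fixed set of members with known roles (RPLP0 to RPLP2, RPS6, RPL5, RPL11, RPL13A, RPL10, RPS3, RPS4X, RPS27, RPS27A and the paralogs), and list genes with an adjusted p under 0.05. Members and lists were chosen with earlier results of these data known. Alternatives were the processed signal scaled to its 75th percentile, normexp (offset 50), mean foreground, median scaling, cyclic loess with members at weight 0, the deposited table, a filter on dim probes, marked spots kept, the mean of all probes of a gene, blocks for replicate number, run, slide and period, only the 2 groups compared, array weights, an intensity trend, and each array left out. Deviations of same-numbered arrays from the group means correlated between 0.395 and 0.858 for PT-G with MED-CTL and between 0.263 and 0.708 for p31-43. They correlated between −0.0176 and 0.41 for PT with MED-CTL and between 0.037 and 0.695 for PT-G with PT. By run, where MED-CTL 1 and 2 change places, they correlated between 0.625 and 0.858 for PT-G with MED-CTL, between 0.536 and 0.708 for p31-43 and between −0.0176 and 0.618 for PT. The runs were read from the dates and not from these correlations. Promoter sequences are those of RefSeq. Figures were drawn with matplotlib 3.10.9 in Python 3.11.15. A member and some list genes are not reported here by name, and the counts include them.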

Additional observations from a re-analysis of the deposited data

Results flagged for a closer look

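The mean effect of PT and PT-G against MED-CTL differed between late and early runs in the brightest probes of RPS15A (−1.54 on the log2 scale, late minus early), RPL34 (−1.02) and RPS10 (−0.48) at a nominal p under 0.01 in limma, and in none of their other probes.

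In 8 of 156 sets of 4 arrays, one array stood apart from the other 3 by more than the 95% limit of Dixon's test, and chance gives about 1 in 20. On p31-43 4, RPS6 was low at 17.49 (nearest other array 17.58). On p31-43 1, RPL5 was high at 17.03 (16.90) and RPS9 low at 14.99 (15.24). On PT-G 4, RPS14 was low at 17.66 (17.92). On PT-G 3, RPL6 was high at 17.09 (16.71) and RPS16 low at 16.34 (17.22). On PT 4, RPL34 was high at 16.90 (16.57) and RPS2 low at 18.12, where the other 3 PT arrays had the top value of 18.54.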

How the results depend on the processing

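The count of members past the nominal 0.01 stayed at 0 between PT-G and PT, PT-G and p31-43, and PT and p31-43 under all alternatives. Against MED-CTL it left 0, always upward, under the following. The count became 1 for PT and 1 for p31-43 with normexp, with the mean foreground and without both early MED-CTL arrays. It became 1 for PT with cyclic loess, and 1 for PT-G and 1 for p31-43 with the deposited table. With the mean of all probes of a gene it became 3 for PT and 1 for p31-43 (in these settings, all probes 2.96% to 3.69% for PT, 0.376% to 0.676% for p31-43 and 3.43% for PT-G). With a replicate block it became 2 for PT-G, 2 for PT and 1 for p31-43, with a run block 2, 4 and 2, with a period block 1, 1 and 2 (all probes 5.85%, 6.06% and 0.786%), with a slide block 4 for PT-G and 12 for p31-43, and with array weights 5, 4 and 5, of which 4, 3 and 0 had an adjusted p under 0.05 (all probes 7.37%, 6.13% and 1.37%). The shares of all probes with the replicate, run and slide blocks stand in the report and rose likewise. The replicate numbers join MED-CTL 1 and MED-CTL 2 with treated arrays of another run, whereas MED-CTL 3 and MED-CTL 4 share the run of the arrays of their number. Leaving out one array gave 0 to 2 for PT-G, with 2 when MED-CTL 3 (4.1% of all probes) or MED-CTL 4 (4.11%) was left out. It gave 0 to 3 for PT, with 3 when MED-CTL 4 (4.58% of all probes), 2 when MED-CTL 3 (3.45%) or PT 1 (3.4%), and 1 when MED-CTL 1 (3.35%) or PT-G 4 (3.65%) was left out. For p31-43 it gave 0 to 2, with 2 when MED-CTL 4 (0.803%) and 1 when MED-CTL 1 (0.534%) or MED-CTL 3 (0.673%) was left out. RPL9 had an adjusted p of 0.047 in limma for PT-G when MED-CTL 3 was left out. RPL9, RPS15, RPS25 and RPL34 made up most of these calls. The SD of the members' median intensity between arrays of a condition was 0.11. The median log2 fold change moved by more than this only for p31-43 with the 75th percentile scaling, to −0.11. This limit is near the medians themselves (0.08, 0.12 and 0.08), so that it does not show them to be stable. The move to 0.004 for p31-43 with median scaling stayed within it. Blocks, array weights, the intensity trend and only the 2 groups compared were not held against it. Scaling moved the median of all probes by over 0.1 for PT-G with p31-43, to 0.11 with median scaling, and for PT with p31-43, to 0.11 with the 75th percentile.

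Between late and early runs, 3 members passed with the 75th percentile scaling (22.4% of all probes), 7 with median scaling (20%), 21 with array weights (28.7%) and 10 to 15 with one array left out (21.1% to 25%). The difference reversed to 0.34 for RPL22 and 0.054 for RPL23 with the mean of all probes, and to −0.027 for RPL7A with the 75th percentile scaling. For the effect of PT and PT-G by period the count was 1 with that scaling (0.612% of all probes). It was 0 with the mean of all probes of a gene (0.822%), where RPL34 and RPS10 reversed to 0.14 and 0.19, and 2 to 4 with one array left out (0.678% to 3.3%). The causes were not tested. RPS10 stayed past 0.01 in 6 of 27 alternatives, RPL34 in 24 and RPS15A in 26. Brightness near the top of the scale limits what can be measured, above all for RPS2.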
